A study of Mus musculus with 25 samples.

Results

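Interleukin-1, tumour necrosis factor and their close relatives were followed in myeloid cells of the mouse spinal cord after injury. The set holds 10 listed genes, and all 10 were found by symbol among the 22439 genes of the count matrices. They are the ligands Il1a, Il1b, Tnf, Il6, Il10 and Il18, the receptor antagonist Il1rn, the decoy receptor Il1r2, and the inflammasome genes Nlrp3 and Casp1. They were listed by name and not by any measured value, although earlier results of these data were known when the list was made.

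Interleukin-1 alpha and interleukin-1 beta both signal through the interleukin-1 receptor. Interleukin-1 alpha is active as made, while interleukin-1 beta and interleukin-18 are made as inactive precursors that caspase-1 cleaves after an NLRP3 inflammasome has formed. The antagonist encoded by Il1rn occupies the receptor without signalling, and the receptor encoded by Il1r2 binds interleukin-1 without passing a signal on. In the injured central nervous system these cytokines are known as early products of microglia and of blood-borne neutrophils and monocytes. Counts of mRNA do not show cleavage or release of any of these proteins.

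The study profiled myeloid cells sorted from a 5 mm lesion segment of the cord by droplet-based 3′ single-cell RNA-seq, in 25 libraries that each pooled 1 to 3 mice. Control libraries (Ctrl, 2) came from mice with laminectomy alone, in which the vertebral arch is opened and the cord is not injured. The injured mice gave 5 libraries on day 1 (D1), 4 on day 2 (D2), 7 on day 3 (D3), 5 on day 10 (D10) and 2 on day 21 (D21). All mice carried Cx3cr1CreERT2, an inducible Cre recombinase at the locus of the chemokine receptor Cx3cr1, which microglia, monocytes and some other myeloid cells express. In 12 libraries, called mixed here, the mice carried no further allele and YFP+ cells were sorted. In the other libraries the strain was Cx3cr1CreERT2:R26tdTomato, with a red reporter (RFP) that Cre switches on. There, RFP+/YFP+ cells gave 5 libraries called resident and RFP-/YFP+ cells gave 7 called infiltrating. The mixed libraries therefore differ from the other libraries in strain as well as in sort. The remaining library, D3_conflict 1, has a title and a sort label that contradict each other, and it entered no main comparison. It was added, as infiltrating, only in 1 alternative of the macrophage fit. Age, the schedule of Cre induction and the injury device are not given in the sources used here.

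The 25 libraries held 30958 cells, 155 to 3800 each, with 486649 to 33204422 UMIs (unique molecular identifiers, the counted molecules) per library and a median of 1577 to 11233 UMIs per cell. No barcode was shared between libraries, and no doublet caller was run. The deposited table gives each cell 1 of 4 cell type codes and 1 of 16 cluster numbers without names. From marker lists the codes were read as microglia (13289 cells, 9 of 9 markers), macrophages including monocytes (12841 cells, 7 of 9 macrophage and 4 of 8 monocyte markers), dendritic-like cells (2712 cells, 6 of 10) and neutrophil-like cells (2116 cells, 10 of 10). Levels are CPM, the count of a gene scaled to a common total of UMIs, over the summed cells of 1 type in 1 library with at least 20 cells, and the library is the replicate. P-values measure the spread between such libraries, and fewer cells with a transcript and fewer transcripts per cell cannot be told apart in a sum. Libraries D1_mixed 3 and D3_mixed 3 stood apart in which clusters their cells came from, and several results that rest on them are given with and without them.

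Upstream sequences are shown for Il1b, Il1rn, Il1a and Il6, 4 of the members that differed between time points in microglia, of which some rose and others fell against control. Il1a (chromosome 2, 129299610 to 129309972), Il1b (chromosome 2, 129364570 to 129371139) and Il1rn (chromosome 2, 24336853 to 24351494) lie on 1 chromosome, and Il6 (chromosome 5, 30013114 to 30019981) on another, in GENCODE M21 on GRCm38. Each window is the 250 bases before an annotated start, from a RefSeq table on GRCm38.p6, written 5′ to 3′ along the strand of the gene. Windows were found for 9 of the 10 members. Capitals mark matches, on either strand, to the kappaB letters (GGG, then any 5 bases, then CC), the AP-1 letters TGANTCA, the C/EBP letters TTGNNCAA or the TATA letters TATAAA. The Il1b window is chr2:129371140-129371389 on the minus strand, that of Il1rn chr2:24336610-24336859 on the plus strand, that of Il1a chr2:129309973-129310222 on the minus strand, and that of Il6 chr5:30012864-30013113 on the plus strand.
Il1b: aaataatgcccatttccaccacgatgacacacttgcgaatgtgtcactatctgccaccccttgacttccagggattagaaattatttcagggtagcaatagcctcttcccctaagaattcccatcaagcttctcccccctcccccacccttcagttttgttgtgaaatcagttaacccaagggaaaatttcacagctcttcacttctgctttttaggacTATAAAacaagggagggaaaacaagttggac
Il1rn: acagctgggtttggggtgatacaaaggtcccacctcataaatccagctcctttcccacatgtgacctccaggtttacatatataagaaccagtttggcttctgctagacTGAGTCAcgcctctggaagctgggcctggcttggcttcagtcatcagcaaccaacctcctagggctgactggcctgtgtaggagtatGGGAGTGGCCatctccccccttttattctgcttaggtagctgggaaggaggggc
Il1a: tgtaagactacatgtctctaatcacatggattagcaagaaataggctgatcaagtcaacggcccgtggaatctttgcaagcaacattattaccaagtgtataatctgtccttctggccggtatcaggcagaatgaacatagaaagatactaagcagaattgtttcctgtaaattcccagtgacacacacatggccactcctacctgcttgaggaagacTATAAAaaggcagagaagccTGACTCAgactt
Il6: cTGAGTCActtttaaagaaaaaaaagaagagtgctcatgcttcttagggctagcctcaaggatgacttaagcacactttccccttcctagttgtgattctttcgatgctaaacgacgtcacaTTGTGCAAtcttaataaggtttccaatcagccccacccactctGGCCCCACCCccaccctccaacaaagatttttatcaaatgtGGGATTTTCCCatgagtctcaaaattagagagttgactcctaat
The windows of the listed members differed in their matches. Il1b and Il1a each held a TATA match, 31 and 32 bases before the start. Il1a also held an AP-1 match 12 bases before the start, and the printed window of Il1rn held AP-1 and kappaB matches 141 and 54 bases before it. Il1rn has other annotated starts, and the window with the most matches was printed. Its window from 24345121 held a kappaB match and no AP-1 match, and its window from 24345041 held no match. Il6 held AP-1, C/EBP and 3 kappaB matches, of which 2 overlap on opposite strands within 1 run of capitals. Of 32851 windows of this length, 45.8% held a kappaB match, 6.75% AP-1, 5.65% C/EBP and 12.4% TATA. A match to these letters is a description of the window and not evidence of a bound site.

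The first question was which cells carried each transcript. Il1b, Il1r2 and Il1rn had their highest medians in neutrophil-like cells, Il1a was highest in microglia, and Casp1 was lowest in neutrophil-like cells. Dendritic-like cells had high Il1b and Il1r2 with low Il1rn, and macrophages had more Il1rn than microglia in most libraries that held both. These levels are a description over 19 libraries for microglia, 19 for macrophages, 9 for dendritic-like cells and 4 for neutrophil-like cells, with no test.

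For the ligands, Il1b ran from 145 to 1091 CPM in neutrophil-like cells (median 866), from 82.4 to 599 in dendritic-like cells (median 389), from 0 to 262 in macrophages (median 21.4) and from 0 to 59.4 in microglia (median 6.13). Neutrophil-like cells were above macrophages of the same library in 4 of 4 libraries and above dendritic-like cells in 3 of 4. Dendritic-like cells were above macrophages in 9 of 9. Macrophages and microglia overlapped, with macrophages higher in 8 of 14 libraries that held both.

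Il1a ran from 5.78 to 131 CPM in microglia (median 21.7) and from 0.874 to 176 in macrophages (median 8.20). It ran from 0 to 10.4 in dendritic-like cells and from 0 to 19.7 in neutrophil-like cells. Il1a was lower in macrophages than in microglia in 11 of 14 libraries, the other direction from Il1rn.

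Tnf, the trimeric cytokine that signals through TNFR1 and TNFR2, had medians of 79.7 CPM in neutrophil-like cells (45.7 to 117), 31.1 in macrophages (7.48 to 98.6), 16.4 in microglia (0 to 26.6) and 12.9 in dendritic-like cells (7.49 to 37.8). It was higher in macrophages than in microglia in 11 of 14 libraries, with overlapping ranges. Il6, a cytokine that signals through gp130, had a low median in every type, 0.513 CPM in microglia (0 to 19.5) and 0 in the others. It reached 41.4 CPM in macrophages (D1_mixed 3) and 1.295 in dendritic-like cells.

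Il10, a cytokine that restrains myeloid activation, was near the limit of detection. Its counts over the summed libraries were 109 in 96431671 UMIs of macrophages, 7 in dendritic-like cells, 2 in microglia and 0 in 2642619 UMIs of neutrophil-like cells. Il18 had medians of 28.9 CPM in microglia, 25.4 in macrophages, 9.77 in dendritic-like cells and 5.10 in neutrophil-like cells, and microglia and macrophages overlapped throughout.

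Among the inhibitors, Il1rn ran from 199 to 1156 CPM in neutrophil-like cells (median 680), from 1.63 to 353 in macrophages (median 85.6), from 0 to 75.9 in dendritic-like cells (median 16.8) and from 0 to 124 in microglia (median 11.2). Neutrophil-like cells were above macrophages in 3 of 4 libraries, and in D1_infiltrating 1 they were below them (199 against 331 CPM). Macrophages were above microglia in 12 of 14 libraries. Il1r2 ran from 197 to 2524 CPM in neutrophil-like cells (median 1101) and from 19.5 to 294 in dendritic-like cells (median 116). It was at 0 in most microglia sums, with a median of 1.63 in macrophages, and neutrophil-like cells were above macrophages in 4 of 4 libraries. Among the inflammasome genes, Casp1 had medians of 68.4 CPM in dendritic-like cells, 52.9 in macrophages, 51.6 in microglia and 11.8 in neutrophil-like cells. Nlrp3, the sensor of the complex, had medians of 58.7 CPM in neutrophil-like cells and 29.3, 23.8 and 21.2 in dendritic-like cells, microglia and macrophages, and the last 3 overlapped.

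**Figure D1:**
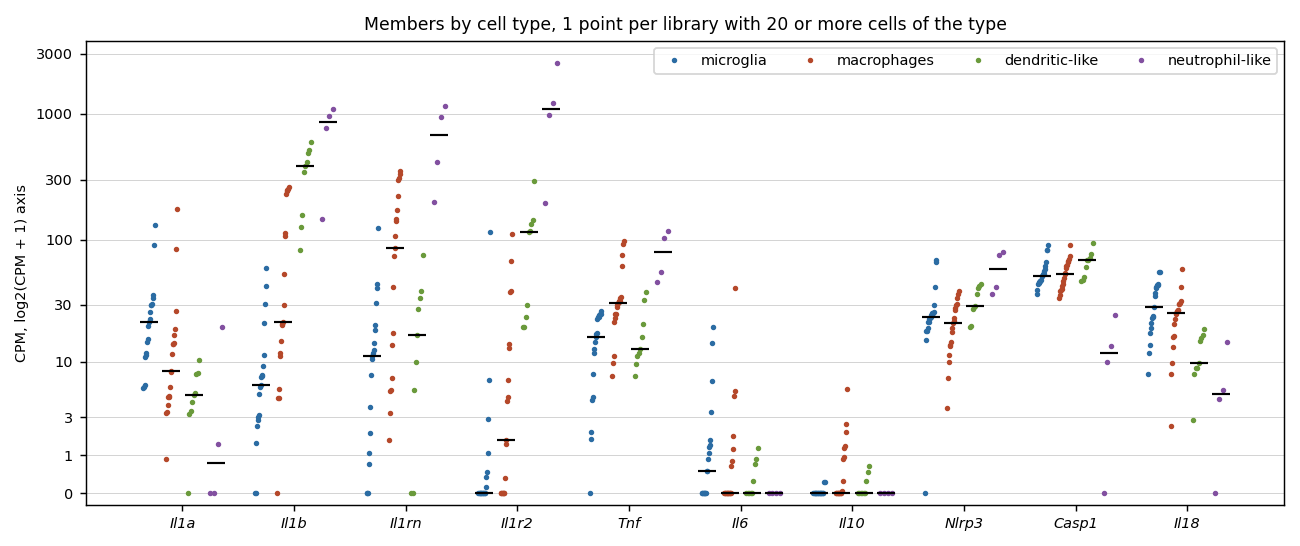
CPM of each listed gene (vertical axis) in each library (points) of the 4 cell types (horizontal axis), with the median as a bar. Il1b, Il1rn and Il1r2 sit highest in neutrophil-like cells (medians 866, 680 and 1101 CPM), and Il1a in microglia (21.7 CPM).

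Clusters sharpened this picture. Cluster 16, the neutrophil-like cluster with 1164 cells in 4 libraries, had the highest median of Il1b (865 CPM), Il1rn (680), Il1r2 (1101) and Nlrp3 (58.7). Cluster 12, a macrophage cluster with 1219 cells in 5 libraries, came next for Il1b, with 291 to 1111 CPM (median 621), and had the highest median of Il18 (88.5) and Il10 (4.25). Cluster 11, another macrophage cluster, came second for Il1rn (median 275 CPM over 9 libraries). Cluster 1, the control microglia, had the highest median of Il1a (111 CPM) and Il6 (17.02) over its 2 libraries. Casp1 was highest in cluster 13 (median 118 CPM over 3 libraries), and Tnf in cluster 14 (204 and 426 CPM in 2 libraries with 72 cells in all). With at least 50 cells required, the highest Tnf moved to cluster 16 and the highest Casp1 to cluster 2.

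**Figure D2:**
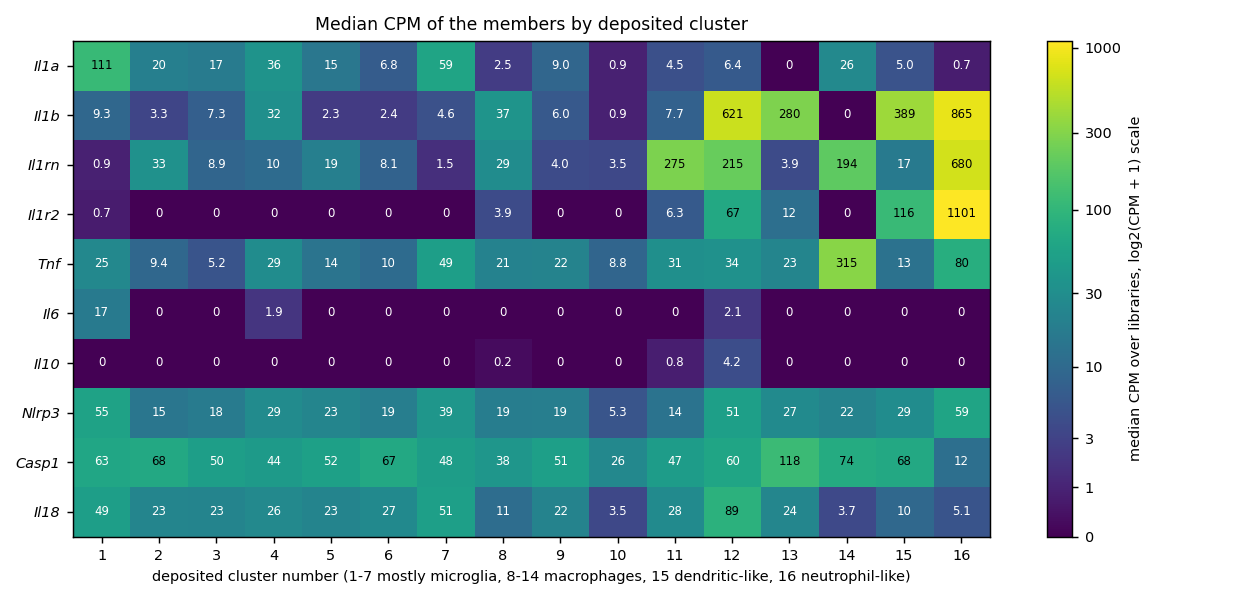
Median CPM over libraries of each listed gene (vertical axis) in each deposited cluster (horizontal axis), on a log colour scale. Cluster 16 holds the highest Il1b, Il1rn and Il1r2, cluster 12 the next Il1b (621 CPM), and cluster 1 the highest Il1a (111 CPM).

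Within a cell type, some members were carried by few cells. The 1% of cells with the most Il1b UMIs held a median of 72.3% of all Il1b UMIs of microglia (61.9% to 100% over 8 libraries), 43.3% in macrophages (25.3% to 100%, 7 libraries), 18.5% in dendritic-like cells (14.9% to 22.5%, 3 libraries) and 15.7% in neutrophil-like cells (11.95% to 18.5%, 3 libraries). In D21_mixed 1, 1 microglial cell held 65 of 196 Il1b UMIs. For Il1rn the share was 52.7% in microglia and 22.7% in macrophages. Casp1 was spread more evenly, at 12.6% in microglia and 8.0% in macrophages. A low count by itself raises this share, and the libraries differ in depth, so the values describe these libraries.

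The next question was how microglia changed with time after injury. The receptor antagonist Il1rn rose at D1, D2, D3 and D10 against control and was called higher at D21, where the fit has a single library, and the decoy receptor Il1r2 rose at D1 alone among the 5 time points. Il1a fell against control at D1, D2, D3 and D10, Il6 fell at D2, D3 and D10, and Il1b rose late, at D21 in a single library and at D10 in a call that most alternatives lost. Tnf, Nlrp3 and Casp1 did not pass the test in any of the 7 comparisons. The test was edgeR's quasi-likelihood test over 17 sums of mixed and resident libraries (Ctrl 2, D1 3, D2 3, D3 5, D10 3, D21 1) and 10801 genes, with sex as a term. A called gene has a Benjamini-Hochberg adjusted p under 0.05 over all these genes.

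At D1, 3 of the 9 tested members were called, 2 higher and 1 lower, against 46.6% of all tested genes (23.9% higher and 22.7% lower). At D2, 3 of 9 were called, 1 higher and 2 lower, against 29.7% of all genes (17.6% and 12.2%). At D3, 3 of 9 were called, 1 higher and 2 lower, against 37.6% (20.1% and 17.6%). At D10, 4 of 9 were called, 2 in each direction, against 10.3% (8.06% higher and 2.22% lower), and at D21, 2 of 9, both higher, against 6.98% (6.12% and 0.861%), all from that 1 library. At D1, D2 and D3 the share of members called was near or below the share of all genes. The median log2 change of the 9 members was -0.51, -0.76, -0.76, -0.54 and -0.37 at the 5 time points in order, with medians of all genes between -0.08 and -0.01. Il10 did not pass the filter on low counts.

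The clusters that held the microglia also differed between time points. All 1429 and 458 control microglia lay in cluster 1. At D1, cluster 5 held 50.95% to 83.0% of the microglia of a library, and at D2 it held 25.4% to 33.8%. Cluster 3 held 37.0% to 42.5% at D3, 44.3% to 51.9% at D10 and 71.8% in D21_mixed 1. Changes between time points in the sums are therefore also differences between clusters.

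The scaling carries weight here. The fit scales each sum by the trimmed mean of M-values (TMM), and the factors of the 2 control sums (1.38 and 1.46) were above those of all injured sums (0.771 to 1.28). With scaling by total counts alone, as in the CPM values, the median log2 change of all genes moved to -0.73, -0.40, -0.62, -0.60 and -0.94 at the 5 time points in order. The log2 changes below are relative to the TMM scale, so a CPM ratio against control reads lower than the fitted change. The rises of Il1rn and of Il1b at D21, and the falls of Il1a against control, were called on both scales. Il1b at D10 was called on the TMM scale and not by total counts (log2 change 1.125, edgeR adjusted p = 0.126). With mixed libraries alone, Ctrl_mixed 1 is female and the D1, D3 and D10 libraries are male, so that the sex term there rests on the D2 pair, of which D2_mixed 2 held 23 microglia. In that fit the median log2 change of all genes was 0.83, -0.03, 0.71, 0.59 and -0.06 at the 5 time points.

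Il1rn stood at 0.715 and 1.08 CPM in the 2 control libraries. It stood at 40.9, 44.2 and 124 CPM at D1, at 14.5, 0 and 7.57 at D2, at 18.6, 20.3, 3.77, 1.99 and 10.6 at D3, at 11.2, 12.6 and 11.97 at D10, and at 30.7 in the library of D21. All D1, D3, D10 and D21 libraries were above both controls, and the library at 0 was D2_mixed 2, whose microglia sum held 23 cells. Outside the fit, the 41 microglia of D21_infiltrating 1 had 0 counts of Il1rn and of Il1b, where 3 counts would be 23.4 CPM. The 36 microglia of D10_infiltrating 2 had 0 counts of Il1rn and 5 of Il1b (59.4 CPM). The log2 change was 7.07 at D1 (SE 0.91, edgeR adjusted p = 2.26e-05) and 3.90, 4.14, 4.36 and 5.98 at D2, D3, D10 and D21 (edgeR adjusted p = 0.00516, 0.00293, 0.00379 and 0.000835). From D1 to D3 it fell by 2.93 on the log2 scale (SE 0.51, edgeR adjusted p = 0.00108), a call lost in thinned sums (-1.79, edgeR adjusted p = 0.142) and kept without D1_mixed 3 (-2.21, edgeR adjusted p = 0.00664). The pooled counts, 877 at D1 against 6 in control, give a ratio of 87.9 (95% counting interval 40.2 to 240). Without D1_mixed 3, which held 535 of the 877, the ratio was 52.6 (23.9 to 144). The D2, D3 and D10 calls were lost in thinned sums (log2 changes 1.715, 3.97 and 3.885, edgeR adjusted p = 0.533, 0.0957 and 0.229). Thinning cut every microglia sum to the 135097 UMIs of D2_mixed 2. Few Il1rn counts remain at that depth, so a call can be lost through depth alone. The D2 call was also lost without D2_mixed 1 (3.05, edgeR adjusted p = 0.0683). The D3 and D10 calls were lost with mixed libraries alone, which hold 1 control library (log2 changes 12.878 and 12.865).

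Il1r2 stood at 0.357 and 1.08 CPM in control microglia and at 2.84, 6.84 and 116 CPM at D1. The value of 116 belongs to D1_mixed 3 and is 501 of the 538 counts of the group. From D2 on it had 2 counts in 12 libraries of D2, D3, D10 and D21. The log2 change at D1 was 5.99 (SE 2.05, edgeR adjusted p = 0.0255), and it was not called in DESeq2 (adjusted p = 0.0771), in thinned sums (0.105), without Ctrl_mixed 1 (0.0503), without Ctrl_resident 1 (0.991) or without D3_resident 2 (0.0567), nor with mixed libraries alone (1). Without D1_mixed 3 the log2 change was 2.85 and was still called (edgeR adjusted p = 0.0415). Over its alternatives the adjusted p ran from 0.0019 to 1. From D1 to D3 Il1r2 fell, with 1 count at D3 against 538 at D1, a pooled ratio of 0.00439, or 0.0416 without D1_mixed 3 (log2 change -7.60, edgeR adjusted p = 0.00432). Without D1_mixed 3, which leaves 13 and 24 counts in the other D1 libraries, the log2 change was -4.45 (edgeR adjusted p = 0.00786), and with mixed libraries alone the fall was not called (edgeR adjusted p = 0.121).

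Library D1_mixed 3 differed from the other D1 libraries in more than Il1r2. Of its 1321 microglia, 46.2% lay in cluster 2, against 14.95% and 14.9% in D1_mixed 1 and D1_mixed 2. Among microglia of cluster 2 alone Il1rn stood at 141, 109 and 321.5 CPM in the 3 libraries (D1_mixed 3 last), and among those of cluster 5 at 33.7, 39.6 and 33.0, so the libraries differed little in cluster 5. Il1r2 differed in both clusters, with 0, 0 and 48.4 CPM in cluster 2 and 2.91, 7.49 and 136 in cluster 5. The 20 microglia of cluster 3 in D1_mixed 3 had 927 CPM of Il1r2 (44 counts) with 42.2 CPM of summed neutrophil markers. The summed neutrophil markers of the microglia were 38.3, 61.3 and 106 CPM, and in D1_mixed 3 cluster 5 they were 133 CPM beside 136 CPM of Il1r2. In neutrophil-like cells of D1 the same markers summed to 97250 and 100200 CPM beside 1225 and 977 CPM of Il1r2. Without D1_mixed 3, 5 of the 9 members were called at D1, beside 44.8% of all genes.

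Il1a stood at 91.7 and 131 CPM in control microglia. It stood at 22.8, 19.95 and 35.97 CPM at D1, at 11.03, 14.8 and 25.9 at D2, at 6.18, 30.4, 11.3, 5.96 and 5.78 at D3, at 21.7, 29.9 and 29.7 at D10 and at 34.0 at D21. Both controls were above all 15 injured libraries. Il1a fell by 1.55 on the log2 scale at D1 (SE 0.46, edgeR adjusted p = 0.0102). The log2 changes after that were -2.24 at D2 (edgeR adjusted p = 0.00251), -2.88 at D3 (SE 0.45, edgeR adjusted p = 0.000163) and -1.499 at D10 (edgeR adjusted p = 0.0321). At D21 the log2 change was -0.60 and was not called (edgeR adjusted p = 0.604). It also fell from D1 to D3 (log2 change -1.32, edgeR adjusted p = 0.035), a call lost without any of 8 single libraries, D1_mixed 3 and D3_mixed 3 among them. It was also lost by total counts (edgeR adjusted p = 0.0614), with mixed libraries alone (0.225), without cluster 2 (0.203), with at least 50 cells (0.05), in thinned sums (0.338) and with the replicate block (0.202).

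Il6 stood at 19.5 and 14.6 CPM in control microglia. It stood at 1.09, 3.42 and 6.73 CPM at D1, at 0.501, 0 and 0.513 at D2, at 0 in all 5 libraries of D3, at 1.43, 1.64 and 1.33 at D10, and at 0.871 at D21. Both controls were again above all injured libraries. At D3, 0 counts in 5248734 UMIs against 136 counts in 7451300 make Il6 at least 31.9-fold lower over the group (edgeR adjusted p = 0.00054), and against D1 it was at least 6.5-fold lower, or at least 3.68-fold without D1_mixed 3 (edgeR adjusted p = 0.0061 with all libraries). The call against D1 was lost with the replicate block (edgeR adjusted p = 0.0525) and with mixed libraries alone (0.0834). The log2 change was -4.52 at D2 (SE 0.83, edgeR adjusted p = 0.00165) and -2.85 at D10 (SE 0.66, edgeR adjusted p = 0.0125). At D1 (-1.34, edgeR adjusted p = 0.119) and D21 (-3.47, edgeR adjusted p = 0.0622) Il6 was not called. Without D1_mixed 3 the value at D1 was -2.08 and was called (edgeR adjusted p = 0.0194, with a range of 0.0165 to 0.94 over the alternatives).

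Immediate early genes, which rise when cells are handled warm, moved with these falls. Their summed level was 1814 and 1363 CPM in control microglia and 255 to 907 CPM in all injured microglia libraries of the fit. Their part in the higher Il1a and Il6 of controls was not tested. Summed neutrophil markers were also higher in control microglia (223 and 203 CPM) than in injured ones (28.1 to 162). So were summed dendritic-cell markers (983 and 1211 CPM against 33.05 to 293). The dendritic-cell list holds Siglech, which is also on the microglia list, so its sum does not tell these cell types apart. The part of these markers was not tested either.

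Il1b stood at 7.33 and 11.3 CPM in control microglia. It stood at 6.13, 3.13 and 3.02 CPM at D1, at 1.504, 7.40 and 2.82 at D2, at 0, 5.06, 7.55, 5.96 and 2.41 at D3, at 9.19, 30.4 and 21.3 at D10 and at 42.7 at D21. Of the 11 libraries of D1 to D3, 9 were below both controls, while 3 of the 4 late libraries were above both controls. Il1b rose at D21 (log2 change 3.20, SE 0.67, edgeR adjusted p = 0.00525) and at D10 (1.71, SE 0.53, edgeR adjusted p = 0.048), and between D3 and D10 (2.24, SE 0.50, edgeR adjusted p = 0.0166). The D21 value comes from 1 library, whose spread is taken from the other time points, and 65 of its 196 Il1b UMIs lay in 1 cell. The call at D10 was lost in DESeq2 (adjusted p = 0.0651), with median-of-ratios scaling (0.0646), with at least 50 cells (0.0692) and without cluster 2 (0.0827). The log2 changes there were 1.612, 1.614, 1.659 and 1.69 in the same order. With mixed libraries alone, where control and D10 differ in sex, the D10 log2 change was -0.03 (edgeR adjusted p = 1), although both D10 libraries lie above that control in CPM. It was also lost without any of 12 single libraries, with adjusted p from 0.0178 to 1 over the alternatives. The D21 call was lost without Ctrl_mixed 1 (edgeR adjusted p = 0.195) and with mixed libraries alone (0.0533). The rise from D3 to D10 was lost without D10_mixed 2 (log2 change 1.65, edgeR adjusted p = 0.201), D10_resident 1 or D3_resident 2, with mixed libraries alone (1.90, edgeR adjusted p = 0.162) and with the replicate block (1.82, edgeR adjusted p = 0.179). Within cluster 4, which held 25.1%, 37.9%, 39.2% and 10.1% of the microglia of the 3 D10 libraries and of D21_mixed 1, Il1b stood at 5.52, 42.2, 34.3 and 101 CPM. Summed macrophage markers in the microglia moved with time too, from 319 and 395 CPM in control to 710 to 964 at D1, 738 to 947.5 at D2, 1604 to 2315 at D3, 2231 to 3462 at D10 and 4637 at D21. Their part in the late rise of Il1b was not tested.

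Tnf stood at 25.01 and 25.4 CPM in control microglia and between 1.69 and 26.6 CPM in injured ones. The D1 libraries had 24.5, 12.8 and 22.7 CPM and the D3 libraries 2.06, 1.69, 16.4, 23.8 and 4.82, so D1 and D3 overlapped. All libraries of D1, D2, D3 and D21 were below both controls, and those of D10 (17.2 to 26.6 CPM) overlapped with them. The values of D3_mixed 1 and D3_mixed 2 are 1 count each. No comparison called Tnf, and the test over all time points gave an edgeR adjusted p of 0.408.

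Nlrp3 stood at 69.1 and 41.5 CPM in controls, at 21.7, 24.5 and 26.2 at D1 and at 15.2 to 25.8 at D3. Its log2 change was -0.51 at D1 (edgeR adjusted p = 0.276) and -0.82 at D3 (edgeR adjusted p = 0.0705), neither called. At D1 it was called by total counts (-1.24, edgeR adjusted p = 0.0127) and with mixed libraries alone (-2.40, edgeR adjusted p = 0.0371). At D3 it was called in 6 alternatives, DESeq2 among them (-0.92, adjusted p = 0.0245), and without D2_mixed 2 or Ctrl_resident 1, with a range of 0.00427 to 0.804 over the alternatives. Casp1 stood at 67.0 and 58.8 CPM in controls and at 36.8 to 91.2 in injured libraries, and it was not called (edgeR adjusted p = 0.125 over all time points). Il18 stood at 43.2 and 55.0 CPM in controls, at 13.8, 17.7 and 24.1 at D1, at 37.6 to 44.4 at D2 and at 28.9 to 55.6 at D3. It stood at 19.4 to 23.9 CPM at D10 and at 21.3 at D21. Libraries of D1, D10 and D21 were below both controls, and Il18 was not called against control at any time point. It rose between D1 and D3 (log2 change 0.94, SE 0.26, edgeR adjusted p = 0.0203), where the groups did not overlap, a call lost without D1_mixed 1 or D1_mixed 2, with the replicate block (edgeR adjusted p = 0.173), with mixed libraries alone (0.159) and in thinned sums (0.406). In that comparison 5 of 9 members were called, 1 higher and 4 lower, against 18.8% of all genes (8.62% higher and 10.2% lower). Between D3 and D10, 1 of 9 was called, higher, against 6.88% (2.96% higher and 3.92% lower). Over all time points 6 of 9 members differed, against 44.4% of all genes.

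**Figure D3:**
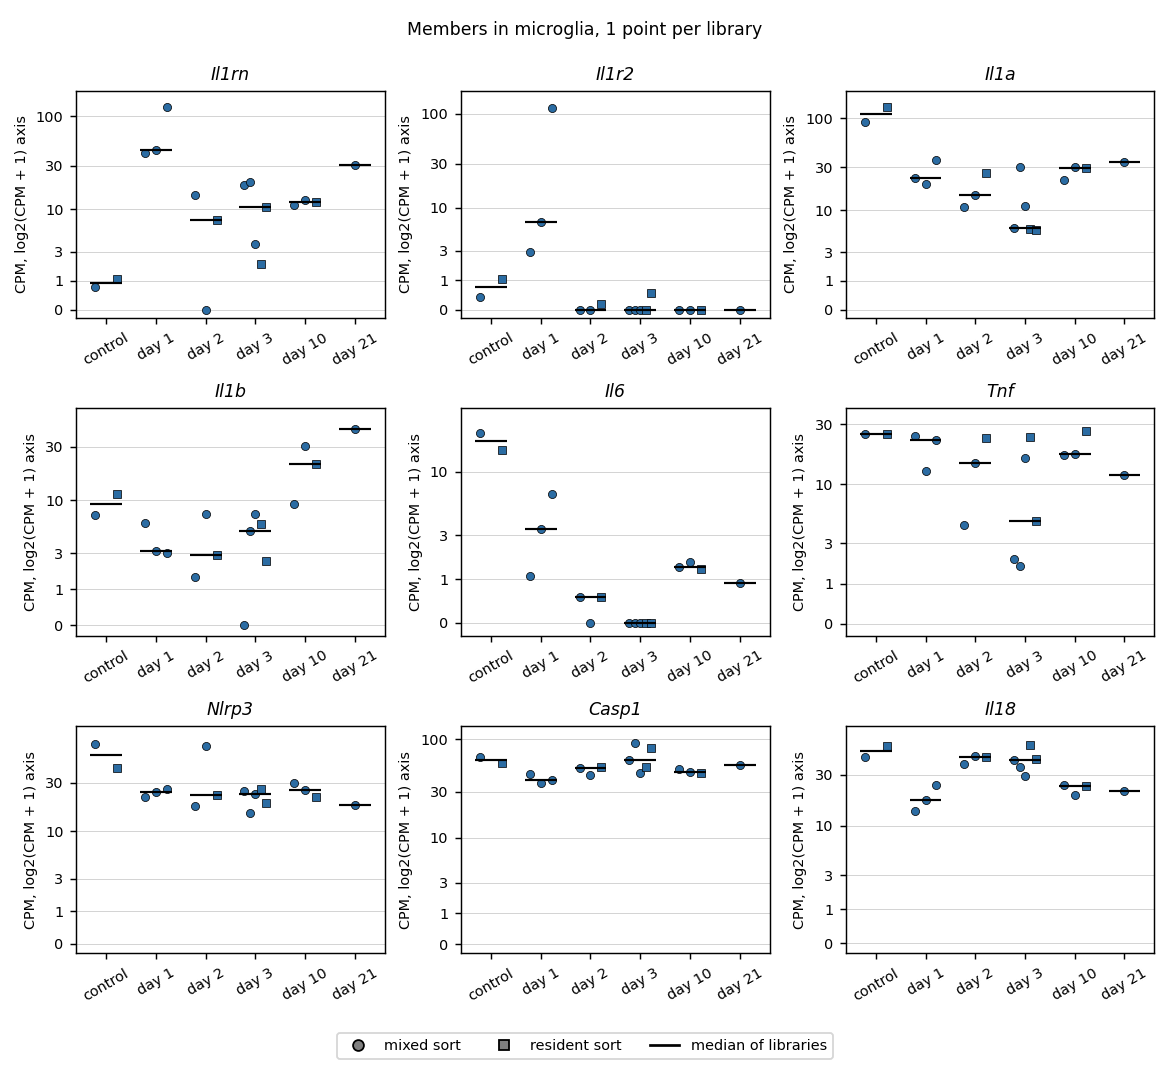
CPM of the 9 tested members in microglia (vertical axis) by time point (horizontal axis), with 1 point per library and the median as a bar. Il1rn is above control in 14 of 15 injured libraries, Il1a and Il6 are below control in all 15, and among these mixed and resident libraries Il1b is highest at D21 (42.7 CPM).

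Sequencing pools, as the deposited table names them, bear on these comparisons. All D1 microglia libraries shared 1 pool with D21_mixed 1 and no control, so that the D1 time point and its pool cannot be told apart. Control libraries shared pools with D10 libraries, and within those pools Il1rn stood at 0.715 against 11.2 and 12.6 CPM and at 1.08 against 11.97, while Il6 stood at 19.5 against 1.43 and 1.64 and at 14.6 against 1.33. Il1a within the same pools was 91.7 against 21.7 and 29.9, and 131 against 29.7. With pool as a term all 4 calls at D10 were kept, with log2 changes of 4.504 for Il1rn, -1.41 for Il1a, -2.94 for Il6 and 1.73 for Il1b (edgeR adjusted p = 0.00188, 0.00813, 0.00916 and 0.0283). At D3 no member was called with the pool term, which called 255 of 10801 genes, with log2 changes of 2.53 for Il1rn, -1.94 for Il1a and -7.68 for Il6 (edgeR adjusted p = 0.741, 0.371 and 0.456). For D10 against D3 the pool term called no gene at all in edgeR, so the absence of members says nothing about them. At D2, Il1rn was not called with it (3.91, edgeR adjusted p = 0.0779), and Il1a and Il6 were.

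The 2 control libraries were also left out in turn. Without Ctrl_mixed 1, 0 members were called at D10 and at D21, where 2.37% and 1.95% of all genes were called, and Il1rn was not called at D2, D3, D10 or D21 (log2 changes 3.50, 3.76, 3.98 and 5.56, edgeR adjusted p = 0.126, 0.0603, 0.138 and 0.0708). Without Ctrl_resident 1, 1 member was called at D1 and 1 at D10, beside 30.5% and 4.66% of all genes, with Il1a at -1.49 at D1 (edgeR adjusted p = 0.113) and Il6 at -3.21 at D10 (edgeR adjusted p = 0.117). The adjusted p of Il1rn over its alternatives ran from 5.34e-11 to 0.0206 at D1 and from 9.3e-05 to 0.229 at D10, and that of Il1a at D1 from 0.000614 to 0.681.

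The other genes of these pathways were taken from a list of 46 receptors, adaptors and regulators, 40 of which were tested in microglia. At D1, 4 were higher and 11 lower, at D2, 3 and 10, and at D3, 3 and 11, while at D10 2 were higher and 2 lower, and at D21 2 were higher. These are 15, 13, 14, 4 and 2 of 40, beside 46.6%, 29.7%, 37.6%, 10.3% and 6.98% of all genes, so the list was not called more often than genes at large at D1. By direction, 11, 10 and 11 of 40 were lower at D1, D2 and D3, beside 22.7%, 12.2% and 17.6% of all genes. Those higher were 4, 3 and 3 of 40, beside 23.9%, 17.6% and 20.1%. In the group of the list around interleukin-6 and interleukin-10, Il10ra, a receptor chain for interleukin-10, fell by 4.001 on the log2 scale at D1 (edgeR adjusted p = 2.81e-05). Il6ra, a receptor chain for interleukin-6, fell by 2.85 (edgeR adjusted p = 0.00021), and Csf1, a growth factor for microglia and macrophages, rose by 1.61 (edgeR adjusted p = 0.00122).

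Among the inflammasome genes at D1, Nlrp1b, another sensor, fell by 3.43 on the log2 scale (edgeR adjusted p = 0.000752) and Txnip, a thioredoxin-binding protein, fell by 1.89 (edgeR adjusted p = 0.00308), while the adaptor Pycard rose by 1.12 (edgeR adjusted p = 0.00126). In the interleukin-1 and Toll group, Tab2 and Irak2, which act downstream of the receptors, had log2 changes of -2.03 and -1.89 (edgeR adjusted p = 0.000414 and 0.000927). At D10 the calls were Csf1 (log2 change 3.31, edgeR adjusted p = 1.29e-05), Il18bp, the soluble inhibitor of interleukin-18 (3.04, edgeR adjusted p = 0.00222), Txnip (-1.501) and Socs3, a feedback inhibitor of cytokine signalling (-1.61). At D21 they were Il18bp (4.56, edgeR adjusted p = 0.000349) and Csf1 (2.75, edgeR adjusted p = 0.00049). The median log2 change of the 40 genes was -0.37 at D1 and -0.185 at D10.

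The third question was how the members changed in macrophages. The deposited table gives no macrophages in the control libraries, so D1 was the reference. Il1rn and Il1r2 fell from D1 to D10. Il1b was lower at D10 in every library but did not pass the test, and Casp1 did not pass it either. The fit used 15 sums of infiltrating and mixed libraries (D1 4, D2 3, D3 2, D10 4, D21 2) and 8577 genes, and 8 members passed the filter on low counts, Il6 and Il10 not.

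Between D1 and D10, 2 of 8 members were called, both lower, against 14.4% of all genes (7.31% higher and 7.04% lower). The members' median log2 change was -1.62, and that of all genes 0.01. Between D1 and D2 no member and no gene at all was called (0 of 8577 genes in edgeR, with 123 genes and 0 members at an unadjusted p under 0.05), and between D1 and D3 likewise (0 of 8577, with 612 genes and 2 members, Il1r2 and Tnf). With mixed libraries alone, where D3 is D3_mixed 3 alone, 6 members were called between D1 and D3, beside 860 of 7473 genes, and 1 between D1 and D2, beside 45 of 7473. Between D1 and D21, 0 of 8 members were called in edgeR against 3.56% of genes (1.95% higher and 1.61% lower), with 4 members at an unadjusted p under 0.05 and 1 called in DESeq2. Between D3 and D10, 1 of 8 was called, lower, against 0.676% (0.0933% higher and 0.583% lower). Over all time points 2 of 8 differed, against 7.18%.

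Il1rn stood at 331 and 301 CPM in the infiltrating and at 309 and 146 in the mixed libraries of D1, at 172, 74.1 and 142 at D2, and at 353 and 5.39 at D3. It stood at 7.19, 3.31, 1.63 and 5.55 CPM at D10 and at 17.7 and 41.8 at D21. All D1 and D2 libraries were above all D10 and D21 libraries. From D1 to D10 Il1rn fell by 5.78 on the log2 scale (SE 0.93, edgeR adjusted p = 0.00234, and no higher than 0.0105 in any alternative). From D3 to D10 it fell by 4.96 (edgeR adjusted p = 0.032), a value that rests on D3_infiltrating 1 (-0.58 without it, edgeR adjusted p = 0.701). At D21 the log2 change against D1 was -3.20 and was not called (edgeR adjusted p = 0.106, with a range of 0.00883 to 0.81 over the alternatives). It was called when D3_mixed 3 or D3_infiltrating 1 was left out.

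Il1r2 stood at 38.7, 38.3, 0 and 112 CPM at D1, at 68.3, 4.78 and 6.88 at D2, at 13.1 and 0.317 at D3, at 0, 0, 1.63 and 0 at D10 and at 1.47 and 0 at D21. Libraries of D1 and D10 overlapped, since D1_mixed 1 with 28 macrophages had none. Pooled, 1 count at D10 against 1245 at D1 gave a ratio of 0.00415 (95% counting interval 0.000105 to 0.0232). The log2 change was -8.22 (SE 1.89, edgeR adjusted p = 0.0126), and it was not called without D10_infiltrating 1 (-6.38, edgeR adjusted p = 0.0563).

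Il1b stood at 252, 243, 250 and 114 CPM at D1, at 262, 0 and 21.4 at D2, at 230.0 and 4.62 at D3, at 29.98, 14.9, 53.7 and 11.1 at D10 and at 20.6 and 11.95 at D21. Libraries of D1 did not overlap with those of D10 or D21, while D2 and D3 each held a library near the D1 level and 1 or more far below it. The log2 change from D1 to D10 was -3.0 (SE 1.06, edgeR adjusted p = 0.0719) and was not called. It was called without D3_mixed 3 (-3.04, edgeR adjusted p = 0.0288), without D3_infiltrating 1 (0.0289), without D2_infiltrating 1 (0.0345) and without D2_mixed 1 (0.0372), and the range over alternatives was 0.0168 to 0.182.

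Tnf stood at 28.5, 33.8, 76.3 and 92.4 CPM at D1, at 25.3, 21.5, 9.76 and 11.1 at D10 and at 32.4 and 98.6 at D21. The D1 and D10 groups did not overlap. The log2 change was -1.63 (SE 0.54, edgeR adjusted p = 0.0556, with a range of 0.00105 to 0.131 over the alternatives), so Tnf was not called. Tnf was called when D3_mixed 3, D3_infiltrating 1, D1_infiltrating 1 or D21_infiltrating 1 was left out. Il1a stood at 3.96, 14.2, 16.95 and 85.1 CPM at D1 and at 18.8, 11.6, 8.14 and 3.33 at D10, with overlap, and at 5.89 and 176 at D21. Casp1 ran from 34.1 to 54.3 CPM at D1 and from 46.3 to 70.0 at D10 (log2 change 0.43, edgeR adjusted p = 0.24). Nlrp3 and Il18 were not called in any macrophage comparison. With D1_mixed 3 and D3_mixed 3 each left out in turn, 2 and 4 members were called between D1 and D10, beside 9.02% and 18.2% of all genes.

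**Figure D4:**
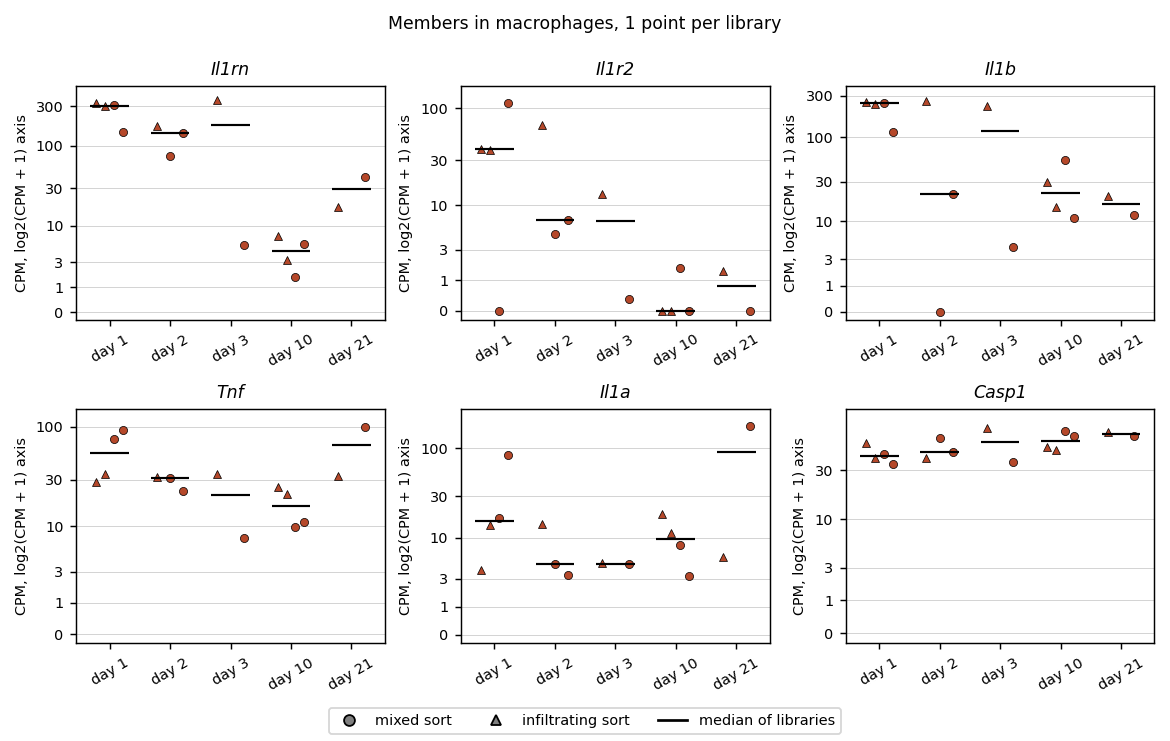
CPM of 6 members in macrophages including monocytes (vertical axis) by time point after injury (horizontal axis), with 1 point per library and the median as a bar. Il1rn at D1 lies between 146 and 331 CPM and at D10 between 1.63 and 7.19, and D2 and D3 each hold high and low libraries for Il1b.

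The macrophage clusters present at each time point differed. At D1, cluster 11 held 37.1% and 66.6% of the macrophages in the infiltrating libraries and 10.7% and 29.6% in D1_mixed 1 and D1_mixed 3, and cluster 12 held 39.2%, 9.71% and 3.57% in the first 3 of these. Cluster 9 held 4.1% and 0.106% in the infiltrating libraries of D1. At D10 it held 78.7% and 24.1% in the infiltrating and 18.9% and 14.7% in the mixed libraries. Cluster 12 carried Il1b at 291 to 1111 CPM and Il1rn at 79.5 to 397. Cluster 9 carried Il1b at 0 to 25.5 CPM and Il1rn at 0 to 50.95. In D3_mixed 3, 2676 of 3019 macrophages lay in cluster 9, against 61 of 1622 in D3_infiltrating 1, and these libraries had 5.39 and 353 CPM of Il1rn.

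Clusters 11 and 8 showed a further split by sort. In cluster 11, Il1b stood at 44.1 to 153 CPM in the 4 infiltrating libraries (median 109) and at 0 to 7.69 in the 5 mixed or resident libraries (median 4.95), with no overlap. In cluster 8 it stood at 36.9 to 208 CPM in the 4 infiltrating libraries and at 0 to 2.19 in the other 3. The infiltrating libraries of D2 and D3 had 147 and 71.8 CPM of Il1b in cluster 11 and 208 and 82.1 in cluster 8. Over all macrophages, the 4 libraries of D1, infiltrating and mixed, ran from 114 to 252 CPM of Il1b. Il1rn in cluster 11 was also higher in infiltrating libraries (294 to 475 CPM, against 137 to 275), and in cluster 8 it overlapped (28.7 to 136 against 12.1 to 29.0). Summed neutrophil markers overlapped between the sorts in both clusters, at 123 to 566 CPM against 143 to 396 in cluster 11 and at 27.4 to 89.4 against 67.2 to 106 in cluster 8. The resident libraries, which share the strain of the infiltrating ones, had 7.69 and 6.14 CPM of Il1b in cluster 11. The clusters were defined on the genes of these cells, so no test was made. In cluster 12, the 1 mixed library, D2_mixed 2, had 291 CPM of Il1b and the 4 infiltrating libraries 600 to 1111.

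**Figure D5:**
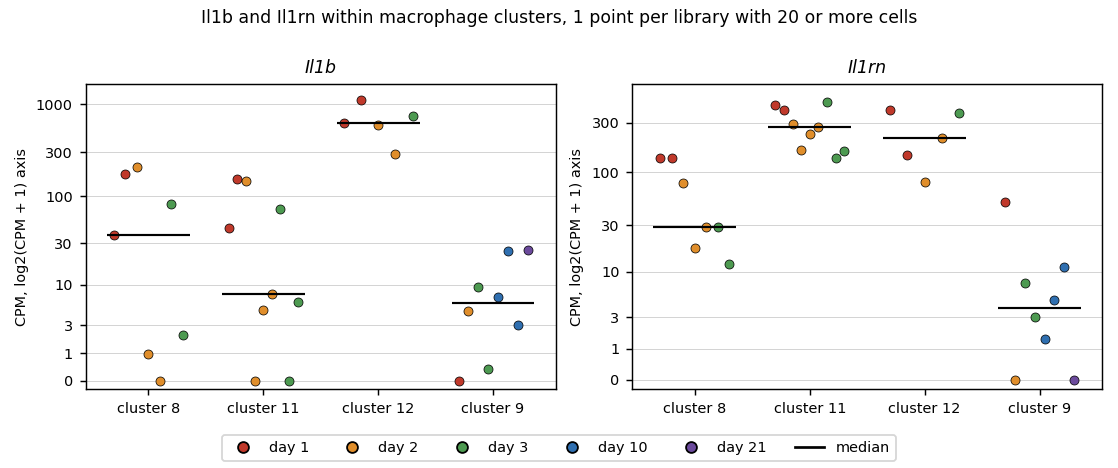
CPM of Il1b and Il1rn (vertical axes) per library (points) within macrophage clusters 8, 11, 12 and 9 (horizontal axis), with the median as a bar. Il1b is at 291 CPM or more in cluster 12 and at 25.5 or less in cluster 9, and cluster 11 splits into libraries at 44.1 or more and at 7.69 or less.

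Immediate early genes moved with time in macrophages too, with a summed level of 2037 to 2518 CPM at D1 and 688 to 741 at D10. Their part in the falls of Il1rn and Il1r2 was not tested. No pool held macrophage libraries of both D1 and D10, so these times and their pools cannot be told apart. Summed neutrophil markers in macrophages were 21.2 to 506 CPM at D1 and 66.1 to 282 at D10.

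Of the pathway list 33 genes were tested in macrophages. Between D1 and D10, 0 were higher and 4 lower, all from the group of the list that holds the genes around interleukin-6 and interleukin-10 and their signalling, beside the 14.4% of all genes called there. Socs3 fell by 3.29 on the log2 scale (edgeR adjusted p = 0.00211), and Osm, the gp130 cytokine oncostatin M, fell by 3.68 (edgeR adjusted p = 0.0105). Csf1 fell by 3.596 (edgeR adjusted p = 0.0193), and Stat3, the transcription factor downstream of gp130, fell by 1.33 (edgeR adjusted p = 0.0192). Between D1 and D21, Socs3 fell by 4.16 (edgeR adjusted p = 0.0141) and no other gene of the list was called, beside 3.56% of all genes. The median log2 change of the 33 genes from D1 to D10 was -0.43.

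Whether macrophages and microglia changed differently was tested as the macrophage change minus the microglia change, over 11357 genes. Il1b moved apart between D1 and D10. It went from 114 to 252 CPM at D1 to 11.1 to 53.7 at D10 in macrophages, and from 3.02 to 6.13 CPM to 9.19 to 30.4 in microglia. The difference was -5.03 on the log2 scale (SE 1.31, edgeR adjusted p = 0.0174), and 1 of the 9 tested members was called, lower, against 11.6% of all genes (6.77% higher and 4.8% lower). The call was lost without D10_mixed 2 (-4.001, edgeR adjusted p = 0.137) and without D1_mixed 2 (-4.82, edgeR adjusted p = 0.0547).

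Il1rn fell in macrophages over the same time, and its difference of -2.94 was not called (edgeR adjusted p = 0.0789), while it was called without D1_mixed 3 (-3.84, edgeR adjusted p = 0.0446), without D3_mixed 3 (0.0101) or without D3_infiltrating 1 (0.0159), with a range of 0.000106 to 0.226 over the alternatives. With the mixed libraries alone and library as a block it was called too (-2.87, edgeR adjusted p = 0.000106). Between D1 and D3 no member was called (0 of 9 in edgeR, 1 at an unadjusted p under 0.05, against 0.0352% of all genes called, 0.00881% higher and 0.0264% lower). The blocked fit of mixed libraries called 3 members there, beside 1154 of 10767 genes, and 4 between D1 and D10, beside 2691 of 10767. In the pathway list Csf1 moved apart most between D1 and D10 (-4.91, edgeR adjusted p = 0.00295), and Irak2 differed as well (-2.20, edgeR adjusted p = 0.0151). The difference assumes that sums of both types from 1 library are independent. With the mixed libraries alone and library as a block the Il1b difference was -4.31 (edgeR adjusted p = 4.07e-14). For D1 and D10 that fit rests on D1_mixed 1 and D1_mixed 3 (28 and 54 macrophages) and on D10_mixed 1 and D10_mixed 2 (53 and 68). It does not hold D1_mixed 2, without which the main call was lost, and its p-value rests on the spread of few libraries.

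Other genes followed some members across the 17 microglia sums, as a description over 5273 genes without a test. The genes most like Il1b were Clip1 (Spearman rho 0.890), P2rx4, an ATP-gated channel (0.828), and C1qa, a complement subunit (0.819). Those most like Il1rn were Mlx (0.961), Nop10 (0.939) and Rrp15 (0.936). Those most like Tnf were Tmem104 (0.826), Vmp1 (0.779) and Tmem87b (0.777), and those most like Casp1 were Sord (0.902), Tmsb10 (0.865) and Vps41 (0.858). The sums share time points, pools and depth, which a gene can follow without any link to the member.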

How the data were processed

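Each library has a matrix of unnormalized UMI counts deposited by the authors. A deposited annotation gives every cell its type, cluster and sequencing pool. Per the submitters' processing notes the tools included Cell Ranger 3.1.0 and the builds GRCm38 and mm10; cell filters are not given in the sources used here. Cell totals computed from the counts equalled the deposited totals for all 30958 cells. The series-wide matrices were not used. No further cell filter, doublet caller or correction for free RNA was applied.

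Counts were summed per library and cell type (at least 20 cells) and fitted with edgeR 4.0.16 in R 4.3.3 (TMM scaling, filterByExpr, quasi-likelihood test, time point and sex as terms), with adjustment by Benjamini-Hochberg over all genes tested and 2-sided p-values. A lone library at D21 was assumed to vary like the others. SEs are the log2 change divided by the square root of F. DESeq2 1.42.0, other scalings, filters, pool as a term, mixed libraries alone, thinned sums, a replicate block and leaving out each library were alternatives. Adding D3_conflict 1 to the macrophage fit as an infiltrating library was another. Thinned sums were cut to the smallest sum of the fit. Scaling by total counts was added after seeing the data. The fits were tested on simulated counts. Counting intervals (95%) are exact and cover counting error only; a fold against 0 counts uses a floor of 3 counts over the group.

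All 10 members are described; of the pathway list at most 8 genes with the lowest adjusted p are named per comparison. A marker counted for a cell type where it reached 20 CPM there and 2 times its level elsewhere (5 CPM added to both). Immediate early genes and neutrophil markers were further lists. Likeness used log2(TMM CPM + 5) over genes with a mean of 20 or more CPM. The members, lists and tests were chosen with earlier results of these data known. Library D2_infiltrating 1 is labelled female while the deposited sex code of its cells is that of the male libraries; the label was used in the fits. The labels include day 2, which the design text does not list.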

Additional observations from a re-analysis of the deposited data

Results flagged for a closer look

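Of 27 groups of 4 or 5 libraries examined for a value that stands far from the others, several held one. For normally spread values chance flags about 1 in 20 groups. That rate does not hold where 1 library has any count and the others have 0, because such a group is always flagged. In microglia at D3, D3_mixed 2 had 30.4 CPM of Il1a, above the other 4 libraries at 5.78 to 11.3, and D3_resident 2 had 0.482 CPM of Il1r2 while the others had 0. In macrophages at D1, D1_mixed 3 stood apart for 4 members: its Il1a was 85.1 CPM and its Il6 41.4 CPM, above the other 3 libraries, and its Il1b was 114 CPM and its Il1rn 146 CPM, below them. Its sum held 54 macrophages, and its summed neutrophil markers were 506 CPM, the highest of the D1 macrophage sums. In macrophages at D10, D10_mixed 1 had 1.63 CPM of Il1r2, which is 1 count, and D10_infiltrating 1 had 0.248 CPM of Il10, also 1 count, while the other libraries had 0.

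The change of Il1b between D1 and D10 differed between macrophages and microglia by -5.03 on the log2 scale (edgeR adjusted p = 0.0174).

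Library D3_conflict 1, whose labels contradict each other and which entered no main comparison, had more of 4 members over all its cells than either control library. It had 199.9 CPM of Il1b (controls 7.33 and 11.3), 245 CPM of Il1rn (0.715 and 1.08), 63.1 CPM of Il1r2 (0.357 and 1.08) and 1.66 CPM of Il10 (0 in both). It was below both controls for Il1a (3.05 CPM against 91.7 and 131), Il6 (0.462 against 14.6 and 19.5), Nlrp3 (24.5 against 41.5 and 69.1), Tnf (22.5 against 25.01 and 25.4) and Casp1 (56.4 against 58.8 and 67.0), and between them for Il18. These are values of 1 library with no replicate, and 2367 of its 3800 cells are macrophages while the deposited table gives all control cells as microglia, so different cell types are compared.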

How the results depend on the processing

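Scaling by total counts gave 6, 5 and 5 called members in microglia at D1, D2 and D21, and 1 over all time points in macrophages; it called 5665, 3882 and 2162 of 10801 genes at D1, D2 and D21. Sums thinned to equal depth held 6 members in microglia and gave 1 call at D1, D2, D3, D10, D21 and for D3 against D1 (beside 1500, 980, 1388, 342, 250 and 357 of 4390 genes), 0 for D10 against D3 and 3 over all time points, and 1 over all time points in macrophages. Mixed libraries alone gave 1 call at D3, 0 at D10, 1 at D21, 1 for D3 against D1, 0 for D10 against D3 and 2 over all time points in microglia, and 1, 6 and 5 in macrophages at D2, D3 and D10 against D1 and 5 over all time points. In microglia that setting called 628, 71 and 597 of 11154 genes at D3, D10 and D21, 1190 for D3 against D1 and 117 for D10 against D3. In macrophages it called 1178 of 7473 genes for D10 against D1 and 1592 over all time points. With mixed libraries alone the control is female and the D1 and D10 libraries male. There 3 changes reversed: Il6 in microglia D1 vs Ctrl (1.99), Il1b in microglia D10 vs Ctrl (-0.03) and Il6 in microglia D10 vs Ctrl (0.54). The pool term gave 0 calls at D3 and for D10 against D3 in microglia; it could not be estimated for the other comparisons with D1 or D21 in microglia or for D10 in macrophages. Without a filter there were 2 calls for D10 against D3 in microglia, beside 996 of 15630 genes. In macrophages there were then 5 (D10), 1 (D21) and 4 (over all time points), beside 1373, 513 and 1070 of 16026 genes. DESeq2 gave 3 for D10 against D3 in microglia (1444 of 15630 genes) and 1 for macrophages at D21 (813 of 16026). In macrophages D10 against D3 gave 0 with at least 50 cells (47 of 10231 genes) and 0 without cluster 2 (51 of 10212). Median-of-ratios scaling gave 1 over all time points there (616 of 8577 genes). For the difference between cell types, mixed libraries with library as a block gave 3 (D3) and 4 (D10).

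The replicate numbers of the mixed libraries (D1, D3, D10) were not shown to pair them (correlations of same-numbered deviations from -0.199 to 0.145). The replicate block gave 2 calls for D3 against D1 and 0 for D10 against D3, beside 1260 and 827 of 10193 genes. No block could be fitted in macrophages. Leaving out 1 library gave 1 to 5 calls in microglia at D1, 2 to 4 at D2, 2 to 4 at D3, 0 to 4 at D10, 0 to 3 at D21, 3 to 6 for D3 against D1, 0 to 2 for D10 against D3 and 5 to 7 over all time points. In macrophages it gave 0 to 0 at D2, 0 to 1 at D3, 1 to 4 at D10, 0 to 1 at D21, 0 to 1 for D10 against D3 and 1 to 4 over all time points, and for the difference 0 to 1 (D3) and 0 to 2 (D10). Of 828 alternative values for 33 single results, 690 kept direction and side of the threshold, 94 lost the call, 41 gained it and 3 reversed. The cause was not tested. The cell type with the highest median was the same for 8 to 9 of 10 members in 3 alternatives, Il10 and Il18 being those that moved. Depth limits Il10 and Il6, and Il1r2 in microglia outside D1.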
